A study of Mus musculus with 8 samples.

Results

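The nuclear genes for subunits of the mitochondrial respiratory chain and ATP synthase were compared, complex by complex and library by library, between Ctrl and LSD1skm-/- mouse muscle. Members were rows of the count table whose symbols begin with Ndufa, Ndufb, Ndufc, Ndufs or Ndufv and a digit (complex I), are Sdha to Sdhd (complex II), begin with Uqcr (complex III), begin with Cox4 to Cox8 (complex IV) or begin with Atp5 (complex V), and had a mean count, over the 6 libraries, of more than 50. Of 27041 rows, 98 carried such a symbol and 82 passed the count limit: 39 for complex I, 4 for complex II, 8 for complex III, 15 for complex IV and 16 for complex V. The limit fell between Atp5pb-ps (mean count 26.8) and Cox4i2 (62.3).

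In the LSD1skm-/- mice, Cre under the human skeletal actin promoter (HSA-Cre), active in myofibers, acted on floxed LSD1 L2/L2 alleles with exon 1 flanked by loxP sites. Ctrl mice carried no Cre. All were C57BL/6J males aged 9 weeks. The muscle was gastrocnemius, which the labels give as skeletal muscle. The labels describe 8 libraries, and 6 have counts: Ctrl replicates 1 to 4 and LSD1skm-/- replicates 1 and 2. LSD1skm-/- replicates 3 and 4 were not analysed here. Ctrl replicates 1 to 4 held 36355538, 32616912, 36213735 and 41278769 counts, and LSD1skm-/- replicates 1 and 2 held 30654828 and 37788092. The labels do not say that each library came from its own mouse, so p-values measure only the spread between samples. RNA from whole muscle cannot tell fewer cells of a kind from less RNA per cell.

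Complexes I to IV pass electrons from NADH and succinate to oxygen, complexes I, III and IV pump protons as they do so, and ATP synthase, complex V, uses the proton gradient to make ATP. Most subunits are encoded in the nucleus and a few in mitochondrial DNA, so each complex except complex II is built from both genomes. Slow oxidative muscle fibers are rich in mitochondria, fast glycolytic fibers hold fewer, and several complex IV subunits have a second gene used mainly in striated muscle.

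Levels are given as CPM, a gene's share of its library's counts on a common scale, after TMM scaling, which sets that scale from the bulk of genes. In Ctrl replicates 1 to 4, Kdm1a, which encodes LSD1, was at 22.9, 22.0, 28.1 and 3.66 CPM, against 2.96 and 3.48 CPM in LSD1skm-/- replicates 1 and 2. The library labelled Ctrl replicate 4 goes against its label, with a level near those of the LSD1skm-/- libraries, so many results are also given without it. Unless said otherwise, a value given alone uses all 6 libraries. The log2 fold change of Kdm1a, LSD1skm-/- over Ctrl in every case here, was -2.56 (SE 0.74, p 0.00915; edgeR quasi-likelihood test with Benjamini-Hochberg adjustment over all genes, adjusted p 0.557). Without the library labelled Ctrl replicate 4 it was -2.91 (SE 0.17, adjusted p 0.000579 by the same test).

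A gene was called at an unadjusted p under 0.05 with a fold change above 1.3 or below 0.77, limits taken from the study's methods and named the call rule here. Of 11364 genes tested, 717 (6.31%) passed it with all 6 libraries and 1724 (15.2%) without the library labelled Ctrl replicate 4. The unadjusted p alone was under 0.05 for 1011 (8.90%) and 2292 (20.2%). By edgeR's quasi-likelihood test and the Benjamini-Hochberg method, 0 genes (0%) had an adjusted p under 0.05 with all 6 libraries and 612 (5.39%) without the library labelled Ctrl replicate 4. DESeq2 placed 836 genes past the call rule with all 6 libraries.

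Against this background, 1 of the 82 members passed the call rule, Atp5md, lower in LSD1skm-/- muscle, with all 6 libraries and again without the library labelled Ctrl replicate 4. By edgeR with Benjamini-Hochberg adjustment, 0 members had an adjusted p under 0.05 in either comparison, with 1 member at an unadjusted p under 0.05 (2 without the library labelled Ctrl replicate 4, Atp5md and Atp5g1). DESeq2 with all 6 libraries placed 1 member past the call rule, beside 836 of 11364 genes tested, with 0 members at an adjusted p under 0.05. Without the library labelled Ctrl replicate 4, DESeq2 placed 1 member past the call rule, beside 1664 genes. In that fit Atp5md had an adjusted p of 0.0326. The share of all genes at an adjusted p under 0.05 by DESeq2 is not given here. A p above the threshold does not show that a level was equal in the 2 groups.

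Small positive fold changes were the common pattern. The log2 fold change was above 0 in 73 of 82 members, against 5518 of 11364 genes tested (48.6%), and in 66 of 82 without the library labelled Ctrl replicate 4, against 5569 genes (49.0%). Its median was 0.11 over members and -0.0077 over all genes, or 0.079 and -0.0058 without that library. The size was under 0.3 in 78 of 82 members. Under 4 other scalings or tests (DESeq2, its size factors, upper quartile, library size alone), from 72 to 77 members were above 0. Without LSD1skm-/- replicate 2, 24 of 82 members were above 0, and without LSD1skm-/- replicate 1, 78 were.

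The values by library show where that sign came from. For complex I, the median over members of the difference from the gene's mean log2 CPM in the 4 Ctrl libraries was 0.18, -0.043, -0.061 and -0.070 across Ctrl replicates 1 to 4, and -0.039 and 0.27 in LSD1skm-/- replicates 1 and 2. For complex II it was 0.18, 0.0033, -0.0048 and -0.19 in Ctrl and -0.0045 and 0.21 in LSD1skm-/- libraries. The same order, with LSD1skm-/- replicate 2 highest and Ctrl replicate 1 next, held in complexes III to V. For complex III the values were 0.17, -0.027, -0.021 and -0.12 in Ctrl and 0.027 and 0.29 in LSD1skm-/- libraries. For complex IV they were 0.18, -0.040, -0.064 and -0.11, then -0.053 and 0.28. For complex V they were 0.16, -0.032, -0.052 and -0.092, then -0.053 and 0.25. By these medians LSD1skm-/- replicate 1 lay inside the range of the Ctrl libraries and replicate 2 above all 4 in the 5 complexes. By means over members there were 2 exceptions: in complex V Ctrl replicate 1 (0.16) was above LSD1skm-/- replicate 2 (0.15), and in complex IV LSD1skm-/- replicate 1 (-0.11) was below every Ctrl library (lowest -0.083). Over all genes tested the same median lay between -0.0068 and 0.0056 in every library.

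**Figure D1:**
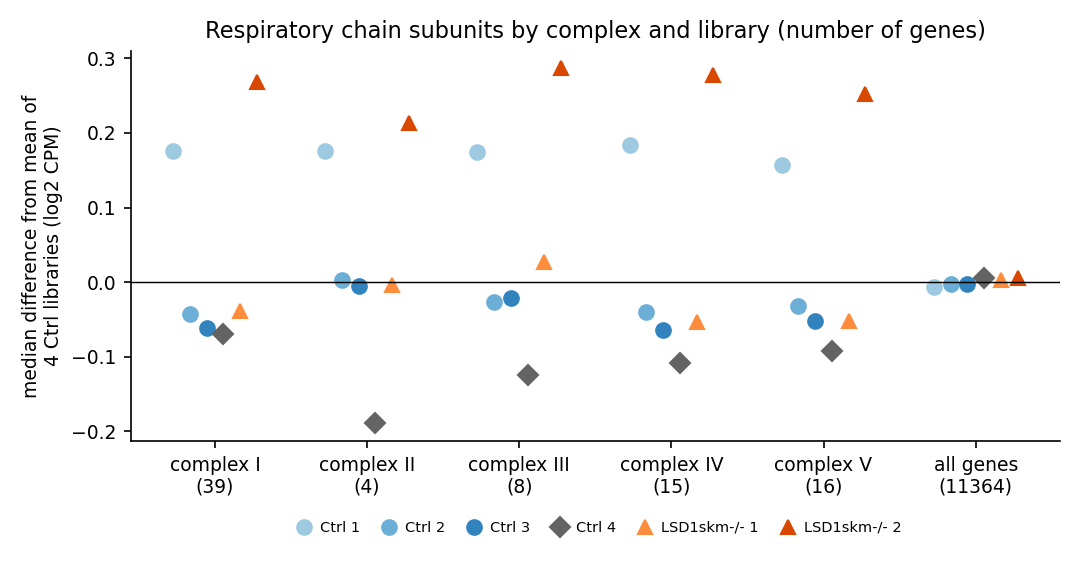
Median over the members of each complex of the difference, in log2 CPM, from the mean of the 4 Ctrl libraries, by library; in each of the 5 complexes LSD1skm-/- replicate 2 is highest (0.21 to 0.29) and Ctrl replicate 1 next (0.16 to 0.18), while over all genes the 6 values lie between -0.0068 and 0.0056.

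Single members followed the same order. LSD1skm-/- replicate 2 was above LSD1skm-/- replicate 1 in 78 of 82 members and above all 4 Ctrl libraries in 57 of 82, against 2945 of 11364 genes tested. LSD1skm-/- replicate 1 lay inside the range of the 4 Ctrl libraries in 63 members. Ctrl replicate 1 was the highest Ctrl library in 71. For the counts of 78, 63 and 71, the share of all genes tested is not given here. Both LSD1skm-/- libraries were above every Ctrl library in 2 members, Ndufs1 and Atp5g1, against 1114 genes tested (9.80%), and below every Ctrl library in 1, Atp5md, against 911 (8.02%). Without the library labelled Ctrl replicate 4 these counts of members were again 2 and 1, and those of all genes were 2310 (20.3%) and 1969 (17.3%). The share of each library's counts given to the 82 members was 2.73, 2.50, 2.39 and 2.52% across Ctrl replicates 1 to 4 and 2.63 and 3.01% in LSD1skm-/- replicates 1 and 2.

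By complex, the median log2 fold change was 0.11 for complex I (35 of 39 members above 0), 0.090 for complex II (4 of 4), 0.15 for complex III (8 of 8), 0.092 for complex IV (12 of 15) and 0.10 for complex V (14 of 16). Without the library labelled Ctrl replicate 4, the medians were 0.10 (34 above 0), 0.032 (2), 0.11 (8), 0.067 (10) and 0.070 (12). Leaving out LSD1skm-/- replicate 2 made 4 of the 5 medians negative, at -0.046, -0.0097, 0.023, -0.061 and -0.057 for complexes I to V, and with replicate number as a block (paired by number) that of complex IV was -0.026. Whether the complexes differ from each other was not tested. Symbols do not match present assignments in every case: Ndufa4 is now placed in complex IV. With Ndufa4 and Ndufa4l2 moved there and Ndufs5-ps and Cox7a2l left out, the medians of complexes I and IV with all 6 libraries were 0.11 and 0.095. The 16 subunits taken as catalytic or central were 3 of complex I, 4 of complex II, 3 of complex III, 3 of complex IV and 3 of complex V. With all 6 libraries they had log2 fold changes from 0.0046 to 0.22 with a median of 0.13, 16 above 0. Without the library labelled Ctrl replicate 4 these ran from -0.068 to 0.19 with a median of 0.072, 12 above 0. By edgeR, 0 of the 16 had an unadjusted p under 0.05 with all 6 libraries, against 8.90% of all genes tested.

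**Figure D2:**
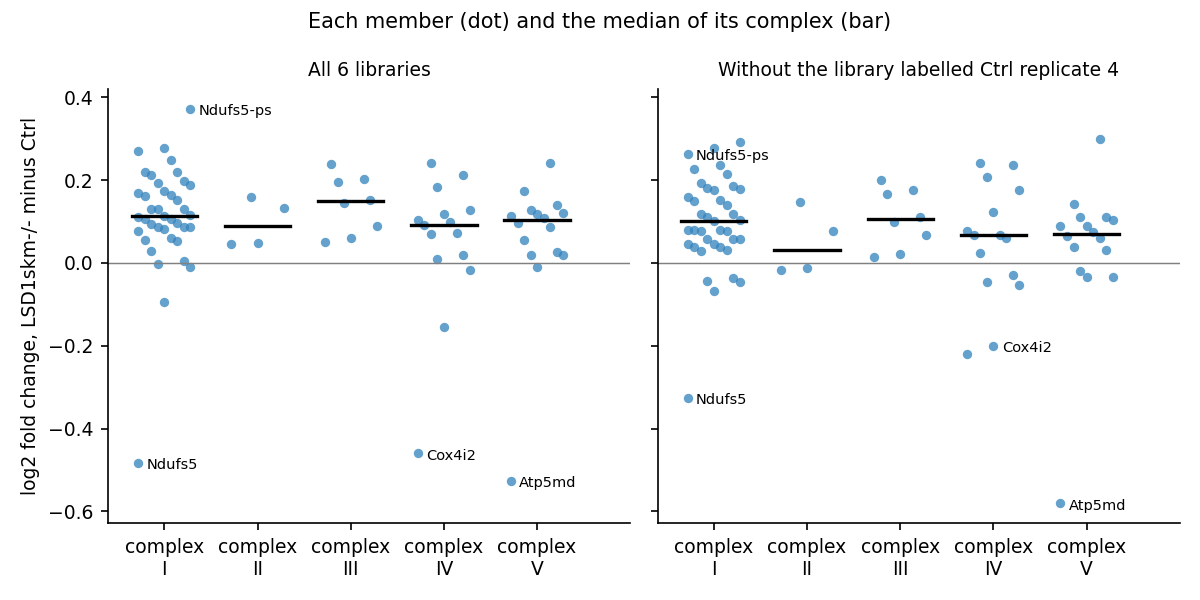
Log2 fold change of each of the 82 members (dots) and the median of each complex (bars), with all 6 libraries and without the library labelled Ctrl replicate 4; medians lie between 0.090 and 0.15 on the left and between 0.032 and 0.11 on the right, and 4 of the 5 turn negative without LSD1skm-/- replicate 2 (not drawn).

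The promoters of members were searched for motifs of factors known to act on genes for mitochondrial proteins. Whether a match went with the shared movement of members between libraries was not tested. RefSeq (GRCm38.p6) promoters, from 250 bases before to 50 bases after a gene's start, were at hand for 66 of 82 members and 27025 genes in all. The 27025 were not limited to expressed genes or matched to members in base content. The effect of this on the shares was not tested. The core of the NRF1 motif, CGCATGCG, which reads the same on both strands, was in 7 of 66 member promoters (10.6%) and in 517 of all (1.91%). The ETS motif of factors such as GABPA, CCGGAAGT, searched like the next 2 on both strands, was in 5 (7.58%) and 1081 (4%). The motif of the estrogen-related receptors, TGACCTTG, was in 4 (6.06%) and 414 (1.53%), and that of YY1, AAGATGGCG, in 6 (9.09%) and 404 (1.49%). At least 1 of the 4 was in 20 member promoters (30.3%) and in 2300 of all (8.51%). Of the 6 members with the YY1 letters, 5 belong to complex I, which supplied 33 of the 66 promoters, and the NRF1 letters occurred in complexes I, III, IV and V. A match describes the letters alone. The study mapped NRF1 binding sites in mouse skeletal muscle by ChIP-seq, which sequences the DNA bound by a protein. Those sites were not compared with the matches here.

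Printed here are 4 promoters with a match close to the start, 1 from complex I, 1 from complex III and 2 from complex V, from 110 bases before the start to 10 bases from it on, 5′ to 3′ on the gene's strand, with matches in capitals. Uqcr11 (chr10:80406812-80406931, minus strand) encodes a small subunit of complex III and holds an ETS match starting 66 bases and an NRF1 match starting 5 bases before the start. Ndufa11 (chr17:56717652-56717771, plus strand), a membrane-arm subunit of complex I, holds an NRF1 match 59 bases before it. Atp5k (chr5:108434390-108434509, minus strand), the e subunit of ATP synthase, holds one 49 bases before it. Atp5g3 (chr2:73911317-73911436, minus strand) is 1 of 3 genes for the c subunit of the ATP synthase ring and holds a match for estrogen-related receptors 52 bases before it.
Uqcr11 promoter: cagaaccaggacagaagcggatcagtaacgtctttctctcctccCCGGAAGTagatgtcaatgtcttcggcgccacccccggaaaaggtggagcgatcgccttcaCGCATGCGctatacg
Ndufa11 promoter: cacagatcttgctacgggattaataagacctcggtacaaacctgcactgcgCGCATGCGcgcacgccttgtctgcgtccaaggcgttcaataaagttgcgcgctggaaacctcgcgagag
Atp5k promoter: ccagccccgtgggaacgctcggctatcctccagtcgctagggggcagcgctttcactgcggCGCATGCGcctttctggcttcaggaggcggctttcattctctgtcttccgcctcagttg
Atp5g3 promoter: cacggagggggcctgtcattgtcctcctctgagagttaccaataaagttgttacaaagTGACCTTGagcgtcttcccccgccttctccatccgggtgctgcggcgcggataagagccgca

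In complex I, Ndufs1 encodes the largest subunit of the arm that takes electrons from NADH and Ndufv1 the subunit that binds NADH. Ndufs1 was at 481, 449, 443 and 414 CPM in Ctrl replicates 1 to 4 and at 521 and 519 CPM in LSD1skm-/- replicates 1 and 2. Both LSD1skm-/- libraries were above all Ctrl libraries, and unlike in most members they were close to each other. Its log2 fold change was 0.22 (SE 0.10, p 0.0685, adjusted p 0.559 by edgeR with Benjamini-Hochberg adjustment), and 0.19 (p 0.0942) without the library labelled Ctrl replicate 4. Ndufv1 was at 412, 356, 362 and 340 CPM in Ctrl and at 375 and 442 CPM in LSD1skm-/- libraries, with a log2 fold change of 0.15 (SE 0.12, p 0.252). The groups overlapped, with LSD1skm-/- replicate 1 below Ctrl replicate 1.

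The extremes of complex I were Ndufs5-ps, with the highest log2 fold change (0.37, SE 0.92, p 0.697), and Ndufs5, with the lowest (-0.48, SE 1.58, p 0.769). Ndufs5 encodes a small accessory subunit, and Ndufs5-ps, annotated as BC002163, is a processed pseudogene on another chromosome with a near-identical sequence. In the coding sequence of Ndufs5, 319 of 321 bases align to the 319 bases of the pseudogene, with 2 differences, T81C and A105G (the base of Ndufs5, its position counted from 1 at the first coding base, then the base of the pseudogene), and 99.4% identity. Of the 50-base stretches of the transcript, 41.2% for Ndufs5 and 72.6% for Ndufs5-ps occur in the other gene. Reads of 50 bases were kept only where they aligned to a single place, so counts of the pair rest on reads that cover a difference or lie outside the shared sequence, and are uncertain. Shown are coding bases 1 to 216, which lie in 1 exon of Ndufs5 (chr4:123715864-123716079, minus strand), and the matching bases of the pseudogene (chr16:42955631-42955846, plus strand), with the 2 differing bases in capitals.
Ndufs5: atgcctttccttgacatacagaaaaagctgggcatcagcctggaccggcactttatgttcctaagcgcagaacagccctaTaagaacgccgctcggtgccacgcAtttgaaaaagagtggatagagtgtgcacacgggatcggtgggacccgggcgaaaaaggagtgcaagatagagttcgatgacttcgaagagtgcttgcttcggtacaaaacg
Ndufs5-ps: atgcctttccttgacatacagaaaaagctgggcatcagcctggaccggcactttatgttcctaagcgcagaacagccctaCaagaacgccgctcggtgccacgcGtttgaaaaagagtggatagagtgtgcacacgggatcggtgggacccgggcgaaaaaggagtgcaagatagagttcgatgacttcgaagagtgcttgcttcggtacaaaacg

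Ctrl replicates 1 to 4 gave Ndufs5 15, 593, 9 and 397 counts and LSD1skm-/- replicates 1 and 2 gave it 311 and 12, and Ndufs5-ps had 1771, 58, 1378, 966, 698 and 1971 in the same order. The percentage of the pair's counts given to Ndufs5 was 0.840, 91.1, 0.649 and 29.1 in Ctrl and 30.8 and 0.605 in LSD1skm-/- libraries. The libraries fell into 3 sets that cross the labels: nearly all counts at the pseudogene (Ctrl replicates 1 and 3, LSD1skm-/- replicate 2), nearly all at Ndufs5 (Ctrl replicate 2), and a mixture (the library labelled Ctrl replicate 4 and LSD1skm-/- replicate 1). The sum of the pair was not constant either, at 51.7, 20.1, 40.2 and 31.2 CPM in Ctrl and 31.8 and 52.7 CPM in LSD1skm-/- libraries. The cause of the sets was not tested. Among the other 37 members of complex I, log2 fold changes ran from -0.094 to 0.28 with a median of 0.11, and the highest was that of Ndufb7 (0.28, SE 0.15, p 0.113), a membrane-arm subunit at 189, 153, 151 and 165 CPM in Ctrl and 169 and 230 CPM in LSD1skm-/- libraries. Ndufb7 was singled out after its values were seen.

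**Figure D3:**
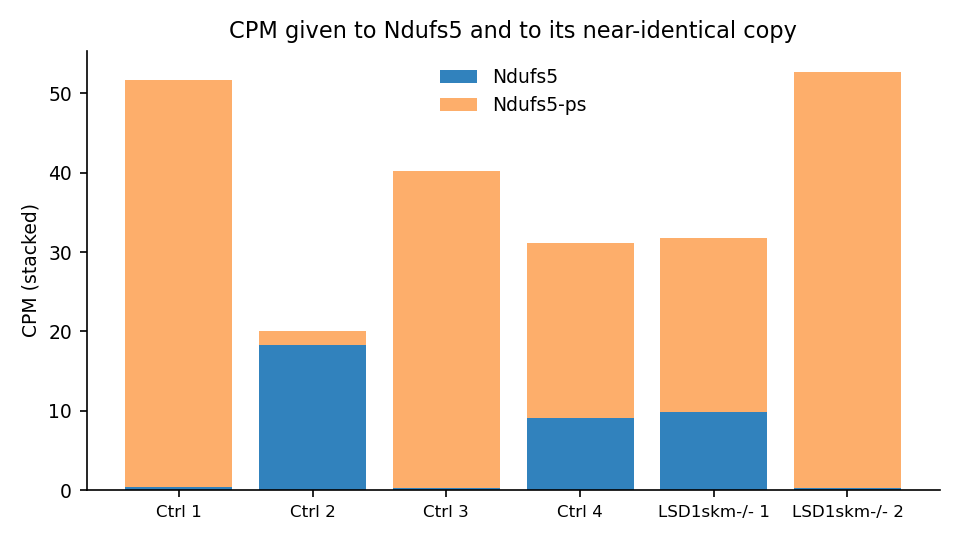
CPM given to Ndufs5 and to Ndufs5-ps, stacked, in each library; the percentage given to Ndufs5 is 0.840, 91.1, 0.649 and 29.1 across Ctrl replicates 1 to 4 and 30.8 and 0.605 in LSD1skm-/- replicates 1 and 2.

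Complex II oxidizes succinate and is also an enzyme of the TCA cycle. Sdha, its flavoprotein subunit, was at 877, 952, 917 and 770 CPM in Ctrl replicates 1 to 4 and 897 and 1031 CPM in LSD1skm-/- replicates 1 and 2. LSD1skm-/- replicate 1 lay inside the Ctrl range, and the log2 fold change was 0.13 (SE 0.13, p 0.326 by edgeR). It was 0.076 without the library labelled Ctrl replicate 4, which had the lowest level of Sdha. Sdhc and Sdhd anchor the complex in the membrane and had the lowest and the highest log2 fold change of its 4 subunits, 0.046 (SE 0.13) and 0.16 (SE 0.12). Sdhd was at 308, 270, 251 and 266 CPM in Ctrl and 282 and 329 CPM in LSD1skm-/- libraries. Without the library labelled Ctrl replicate 4, the log2 fold change of Sdhc was -0.013. In that library Sdhc was at 278 CPM, the lowest of the 6, beside 360, 321 and 319 CPM in the other Ctrl and 309 and 351 CPM in LSD1skm-/- libraries.

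Complex III passes electrons from ubiquinol to cytochrome c. Uqcrfs1, which encodes its iron-sulfur protein, was at 519, 454, 455 and 426 CPM in Ctrl replicates 1 to 4 and 481 and 586 CPM in LSD1skm-/- replicates 1 and 2, with a log2 fold change of 0.20 (SE 0.13, p 0.156). Uqcrc1, a core subunit, was at 817, 716, 714 and 652 CPM in Ctrl and 732 and 871 CPM in LSD1skm-/- libraries, with a log2 fold change of 0.14 (SE 0.13, p 0.302). The groups overlapped in all 8 members of complex III. The highest log2 fold change was that of Uqcrq, a small subunit, at 0.24 (SE 0.14, p 0.133), with 394, 333, 324 and 310 CPM in Ctrl and 355 and 448 CPM in LSD1skm-/- libraries. With all 6 libraries the lowest was that of Uqcrb, at 0.052 (SE 0.14, p 0.731 by edgeR), and its value was 0.022 without the library labelled Ctrl replicate 4. Uqcrb shares 43.4% of its 50-base stretches with other genes and is uncertain.

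In complex IV the highest log2 fold change was that of Cox7a1, the heart and muscle gene for subunit 7a. Cox7a1 was at 270.5, 228, 218 and 238 CPM in Ctrl replicates 1 to 4 and at 248 and 316 CPM in LSD1skm-/- replicates 1 and 2. LSD1skm-/- replicate 1 was below Ctrl replicate 1, and the log2 fold change was 0.24 (SE 0.14, p 0.119). The lowest was that of Cox4i2, the second gene for subunit 4, at 1.33, 1.51, 1.86 and 2.77 CPM in Ctrl and 1.45 and 1.28 CPM in LSD1skm-/- libraries. Its log2 fold change was -0.46 (SE 0.34, p 0.213), and -0.20 (p 0.428) without the library labelled Ctrl replicate 4, which had its highest level.

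Several subunits have alternative genes, and levels of these can be compared per kilobase of transcript. Cox6a2, the muscle gene for subunit 6a, exceeded Cox6a1 by log2 ratios per kilobase of 4.80, 4.78, 5.40 and 4.88 across Ctrl replicates 1 to 4 and 5.14 and 5.06 in LSD1skm-/- replicates 1 and 2. Cox8b, the muscle gene for subunit 8, exceeded Cox8a by 4.96, 4.99, 5.29 and 4.62 in Ctrl and 4.80 and 4.81 in LSD1skm-/- libraries. In both families the LSD1skm-/- ratios lay inside the Ctrl range, and the muscle gene was the more abundant by far in every library. Cox7a1 exceeded Cox7a2 by 1.23, 1.22, 1.33 and 1.41 in Ctrl and 1.49 and 1.39 in LSD1skm-/- libraries, so that both LSD1skm-/- ratios were above those of Ctrl replicates 1 to 3 but not both above that of the library labelled Ctrl replicate 4. The ratio of Cox4i2 to Cox4i1 was -9.19, -8.70, -8.43 and -7.72 in Ctrl and -8.76 and -9.29 in LSD1skm-/- libraries. None of these ratios was tested.

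**Figure D4:**
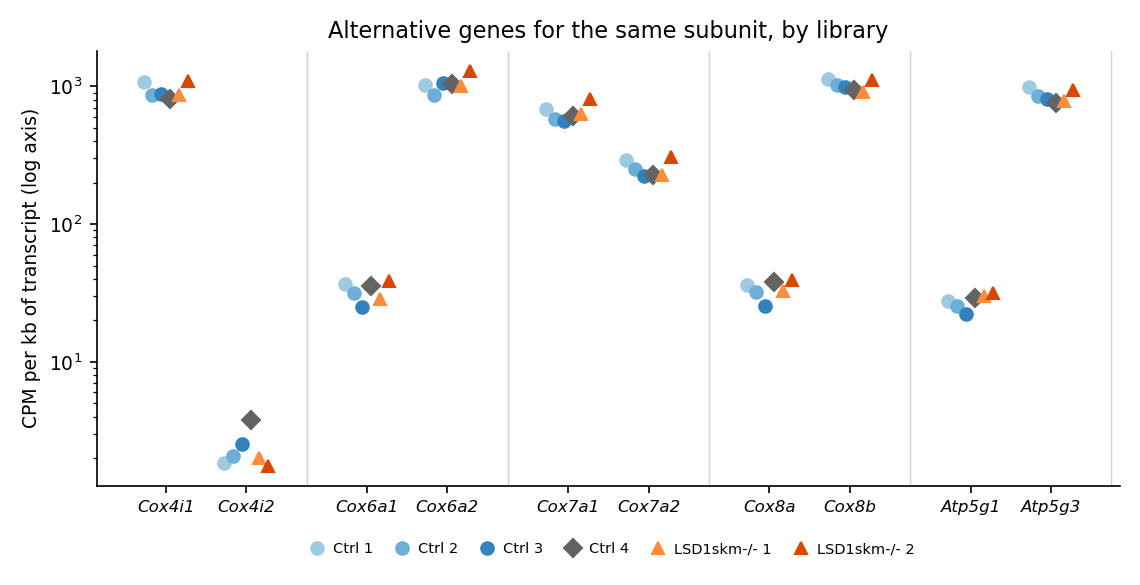
CPM per kilobase of transcript, on a log axis, of alternative genes for 5 subunits in each library; for subunits 6a and 8 the muscle genes Cox6a2 and Cox8b exceed Cox6a1 and Cox8a by log2 ratios of 4.62 to 5.40 in all 6 libraries.

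For the other alternative genes, Cox6b2 was below the count limit, with counts of 3, 5, 5 and 45 in Ctrl libraries, replicates 1 to 4, against 22 and 17 in LSD1skm-/- replicates 1 and 2. The library labelled Ctrl replicate 4 thus had the highest count of Cox6b2 and the other 3 Ctrl libraries the lowest, and this gene was not tested. Its partner Cox6b1 was at 419, 354, 348 and 357 CPM in Ctrl and 338 and 450 CPM in LSD1skm-/- libraries. Ndufa4l2, the hypoxia-regulated relative of Ndufa4, was at 4.02, 3.33, 4.81 and 6.56 CPM in Ctrl and 4.002 and 4.79 CPM in LSD1skm-/- libraries, with the groups overlapping. Cox7a2l, which helps join complexes into supercomplexes and is counted here by its symbol, was at 49.1, 43.3, 43.5 and 39.2 CPM in Ctrl and 42.6 and 46.2 CPM in LSD1skm-/- libraries.

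In complex V, Atp5b, the catalytic beta subunit, had the highest level of all members per kilobase, 1580 CPM per kilobase on average over the 6 libraries, against a median of 259 over the members and 2.34 for Cox4i2. Atp5b was at 3168, 2886, 2915 and 2746 CPM in Ctrl replicates 1 to 4 and 3059 and 3391 CPM in LSD1skm-/- replicates 1 and 2, with a log2 fold change of 0.14 (SE 0.11, p 0.255). LSD1skm-/- replicate 1 lay inside the Ctrl range.

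Atp5md encodes DAPIT, a small subunit of the membrane part of ATP synthase, and was the 1 member of 82 past the call rule (6.31% of all genes tested). It was at 16.6, 16.7, 13.7 and 13.3 CPM in Ctrl replicates 1 to 4 and at 8.92 and 12.0 CPM in LSD1skm-/- replicates 1 and 2. Both LSD1skm-/- libraries were below all 4 Ctrl libraries, opposite in direction to most members. Its log2 fold change was -0.53 (SE 0.17, p 0.0159, adjusted p 0.557 by edgeR with Benjamini-Hochberg adjustment), and -0.58 (p 0.00907, adjusted p 0.100) without the library labelled Ctrl replicate 4. It passed the call rule in 13 of 14 alternative fits, and the exception was the fit without LSD1skm-/- replicate 1, with a log2 fold change of -0.34. Its Benjamini-Hochberg adjusted p ran from 0.0326 to 0.947 over those fits by edgeR's quasi-likelihood test or DESeq2. Its transcript shares 40.6% of its 50-base stretches with 4 other genes, so its level is uncertain, and Gm14539, which shares most of them, had 10 to 17 counts in the 6 libraries beside 283 to 581 for Atp5md.

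Atp5g1, Atp5g2 and Atp5g3 encode the same mature c subunit. Atp5g1 had the highest log2 fold change of complex V, 0.24 (SE 0.13, p 0.0981), and 0.30 (p 0.0434, under the fold limit of the call rule) without the library labelled Ctrl replicate 4. It was at 16.5, 15.0, 13.4 and 17.3 CPM in Ctrl replicates 1 to 4 and 18.0 and 18.7 CPM in LSD1skm-/- replicates 1 and 2, above every Ctrl library by a small margin. It shares 66.0% of its stretches with other genes and is uncertain. Atp5g3 was by far the more abundant, at 708, 603, 580 and 538 CPM in Ctrl and 557 and 674 CPM in LSD1skm-/- libraries, with the groups overlapping. The log2 ratio per kilobase of Atp5g1 to Atp5g3 was -5.17, -5.06, -5.18 and -4.70 in Ctrl and -4.69 and -4.91 in LSD1skm-/- libraries, so that both LSD1skm-/- ratios were above those of Ctrl replicates 1 to 3, with the library labelled Ctrl replicate 4 beside them.

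**Figure D5:**
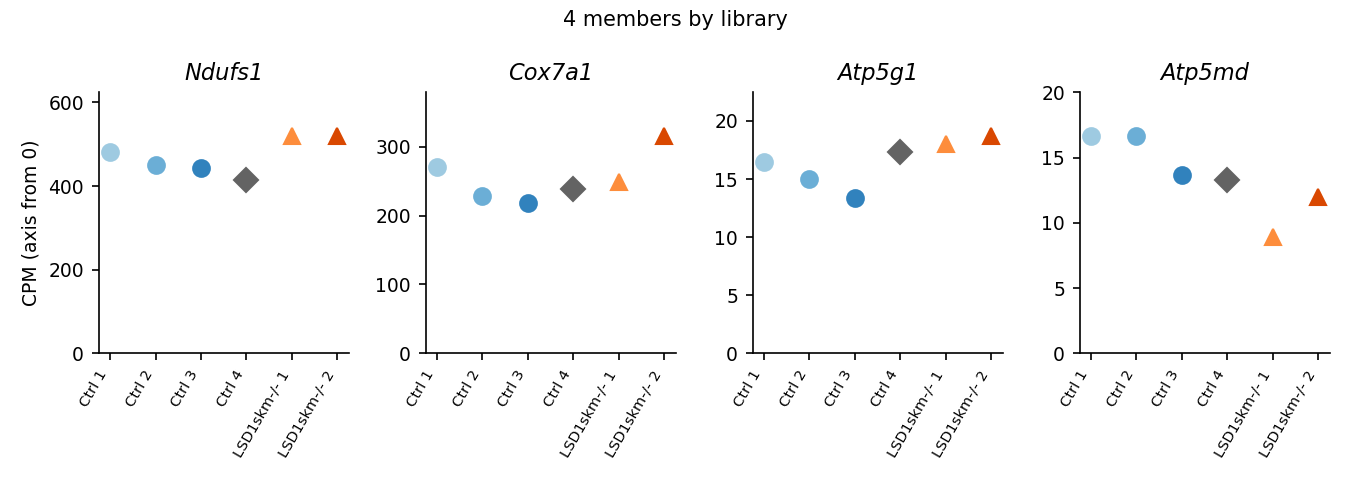
CPM by library of Ndufs1, Cox7a1, Atp5g1 and Atp5md, with axes from 0; both LSD1skm-/- libraries are above every Ctrl library for Ndufs1 (521 and 519 CPM) and Atp5g1 (18.0 and 18.7 CPM) and below for Atp5md (8.92 and 12.0 CPM), and for Cox7a1 LSD1skm-/- replicate 1 lies among the Ctrl libraries.

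Shared sequence also limits other members. Of the 82, 15 share over 30% of their 50-base stretches with another annotated gene, among them Atp5l (84.8%), Cox7c (53.0%) and Atp5h (50.5%), and 34 share none. These members stay in the counts and medians of their complexes.

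A few subunits of complexes I, III, IV and V are encoded in mitochondrial DNA. Of 13 such genes 7 could be tested, with a median log2 fold change of -0.026 and 3 above 0 (-0.059 and 2 without the library labelled Ctrl replicate 4), and the mean difference of log2 CPM from the Ctrl mean was 0.17, -0.0069, -0.025 and -0.14 across Ctrl replicates 1 to 4 and 0.016 and 0.031 in LSD1skm-/- replicates 1 and 2. mt-Nd6, the complex I subunit read from the light strand, was at 203, 247, 204 and 257 CPM in Ctrl and 276 and 289 CPM in LSD1skm-/- libraries, above every Ctrl library. Its log2 fold change was 0.31 (SE 0.13, p 0.0483), inside the fold limits of the call rule. The other 6 (mt-Nd3, mt-Nd4l, mt-Co2, mt-Co3, mt-Atp6 and mt-Atp8) were listed at 0 to 1.22 CPM in every library, so their levels could not be compared. The difference between mitochondrial and nuclear genes was not tested.

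Assembly factors put the complexes together without staying in them. Of 48 tested, 37 had a log2 fold change above 0, with a median of 0.12 (35 and 0.11 without the library labelled Ctrl replicate 4), and the mean difference from the Ctrl mean was 0.053, 0.033, -0.078 and -0.0088 across Ctrl replicates 1 to 4 and 0.014 and 0.18 in LSD1skm-/- replicates 1 and 2. By complex the medians were 0.10 for the 15 factors of complex I, 0.15 for the 4 of complex II, 0.17 for the 6 of complex III, 0.080 for the 19 of complex IV and 0.090 for the 4 of complex V. In 10 of the 48 both LSD1skm-/- libraries were above every Ctrl library, and in 0 were both below, against 9.80% and 8.02% of all genes tested. These counts were 13 and 2 without the library labelled Ctrl replicate 4, against 20.3% and 17.3%. Taco1, an activator of translation of the mitochondrial Cox1 messenger, was the 1 factor of 48 past the call rule (6.31% of all genes tested), at 26.0, 33.7, 25.8 and 28.5 CPM in Ctrl and 38.6 and 37.6 CPM in LSD1skm-/- libraries (log2 fold change 0.42, SE 0.13, p 0.0127, adjusted p 0.557 by edgeR with Benjamini-Hochberg adjustment). All 4 Ctrl libraries were lower. Without the library labelled Ctrl replicate 4, 3 factors of 48 passed the call rule (15.2% of all genes tested), Taco1 and Sco2 higher and Coa5 lower, named after their values were seen.

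The TCA cycle, which supplies NADH and succinate, gave 17 genes tested, 13 above 0 with a median of 0.11, and in 6 both LSD1skm-/- libraries were above every Ctrl library (9.80% of all genes tested). Leaving out the library labelled Ctrl replicate 4, 11 were above 0 with a median of 0.088, and the count without overlap was again 6 (20.3% of all genes tested). Of the 17, 1 had an unadjusted p under 0.05 by edgeR with all 6 libraries, against 8.90% of all genes tested. This was Sucla2, a subunit of succinyl-CoA ligase, at 549, 532, 548 and 538 CPM in Ctrl replicates 1 to 4 and 642 and 660 CPM in LSD1skm-/- replicates 1 and 2 (log2 fold change 0.26, SE 0.094, p 0.0233). Its fold change stayed under the fold limit of the call rule. Among 4 subunits and cytochrome c genes whose symbols the rule misses (Ndufab1, Cyc1, Cycs and Atpif1), the median was 0.12 (0.11 without the library labelled Ctrl replicate 4). Atpif1, which encodes the inhibitor of ATP synthase, was at 14.2, 14.9, 13.6 and 21.8 CPM in Ctrl and 20.7 and 22.6 CPM in LSD1skm-/- libraries. The library labelled Ctrl replicate 4 lay with the LSD1skm-/- libraries, and the log2 fold change was 0.42 (p 0.0682) with it and 0.60 (adjusted p 0.0222 by edgeR with Benjamini-Hochberg adjustment) without it, when Atpif1 passed the call rule.

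Regulators of mitochondrial genes, 16 tested, had a median log2 fold change of 0.012 with 8 above 0, and without the library labelled Ctrl replicate 4 the median changed sign, to -0.035, with 8 above 0. Esrrb, an estrogen-related receptor, was the 1 regulator of 16 past the call rule (6.31% of all genes tested), at 6.71, 5.36, 5.74 and 8.44 CPM in Ctrl replicates 1 to 4 and 9.86 and 10.2 CPM in LSD1skm-/- replicates 1 and 2 (log2 fold change 0.61, SE 0.19, p 0.0145). Its log2 fold change without the library labelled Ctrl replicate 4 was 0.75 (adjusted p 0.0264 by edgeR with Benjamini-Hochberg adjustment). The coactivator Ppargc1a was at 52.7, 50.2, 57.4 and 33.7 CPM in Ctrl and 91.2 and 36.3 CPM in LSD1skm-/- libraries, with its highest level in LSD1skm-/- replicate 1.

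Of 9 slow-twitch genes, 7 passed the call rule (6.31% of all genes tested), lower, and 8 without the library labelled Ctrl replicate 4 (15.2%). The median log2 fold change of the 9 was -1.52, or -1.54 without that library, and their mean difference from the Ctrl mean was -0.098, -0.35, 0.59 and -0.14 across Ctrl replicates 1 to 4 and -1.96 and -0.86 in LSD1skm-/- replicates 1 and 2. Myl3 and Myoz2 did not pass it with all 6 libraries. The 11 fast-twitch genes had a median of -0.11 (-0.11 without the library labelled Ctrl replicate 4) with 1 past the call rule, lower, in both fits. The 6 myofiber genes, which share Myh4 with them, had -0.13 (-0.17) with 2 past it, lower (1). Their median was -0.055 without LSD1skm-/- replicate 1 and -0.070 without Ctrl replicate 3, and negative in every fit that left out 1 library.

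Lists for other cell types follow, with the values without the library labelled Ctrl replicate 4 in parentheses. Of all genes tested, 6.31% (15.2%) passed the call rule and 8.90% (20.2%) had an unadjusted p under 0.05 by edgeR. The 8 adipocyte genes had a median log2 fold change of -3.41 (-3.11) with 6 past the call rule, lower (6), and Ctrl replicate 3 lay near the LSD1skm-/- libraries, with mean differences from the Ctrl mean of 0.53, 0.41, -1.98 and 1.04 in the Ctrl and -2.83 and -2.20 in the LSD1skm-/- libraries. The 8 fibroblast genes had 0.32 (0.43) with 2 past the rule, higher (5), and the 3 blood genes 0.67 (0.84) with 3 past it, higher (3). The 8 endothelial genes had -0.32 (-0.24) with 1 past it, lower (0, with 3 at an unadjusted p under 0.05 by edgeR), and the 3 smooth muscle genes -0.38 (-0.066) with 1 past it, lower (1). The 6 immune genes had 0.28 (0.36) with 1 past it, higher (1), and the 4 Schwann genes -0.39 (-0.26), with 0 at an unadjusted p under 0.05 by edgeR (0). Cidea, the 1 brown adipocyte gene tested, had 0.40 (1.04) and passed it in neither fit. A link between any of these lists and the subunits was not tested.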

How the data were processed

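Poly(A) RNA of Ctrl and LSD1skm-/- muscle had been sequenced by the authors as stranded libraries with single-end reads of 50 bases, mapped to mm10, with uniquely aligned reads kept. The deposited values are raw counts of reads per gene; the study's text gives htseq-count as the mapping tool and HOMER as the tool that quantified expression, with no other aligner, and does not state the strand setting of the counting. Of 27041 rows, the 11364 whose mean count exceeded 50 were tested with edgeR 4.0.16 (TMM, quasi-likelihood, condition alone) in R 4.3.3 and Benjamini-Hochberg adjustment; SE was the fold change over the root of F. DESeq2 1.42.0 was the other tool. Both were tested on simulated data. Library totals ran from 30654828 to 41278769 counts, so that counting error is small beside the spread between libraries for all but members near the limit. Log2 CPM used a prior count of 2. Transcript lengths and shared 50-base stretches came from GENCODE vM21 (GRCm38), with 1 transcript per gene. Named genes were catalytic or central subunits, alternative genes for a subunit, the highest and lowest of each complex, and every member past the call rule, or with an adjusted p under 0.05 without the library labelled Ctrl replicate 4; others named were chosen after their values were seen. Gene lists (assembly factors, mitochondrial DNA, TCA cycle, regulators, subunits the rule misses, markers of cell and fiber types) were written from general knowledge. Members and lists were chosen with earlier results of these data known. Alternatives were other scalings, count limits, thresholds, DESeq2, a replicate block, other assignments of subunits, and leaving out each library. LSD1skm-/- replicates 3 and 4 have no counts and were left out.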

Additional observations from a re-analysis of the deposited data

Results flagged for a closer look

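In 6 of 66 results examined, the gap between 1 Ctrl library and the nearest of the other 3, divided by the range of the 4, was above Dixon's limit for 4 samples, which chance exceeds in about 1 in 20 groups. Kdm1a is low in the library labelled Ctrl replicate 4 (gap over range 0.879), as given at the start of the report. In the same library the mean log2 CPM of 8 fibroblast genes was high (0.939). Ctrl replicate 1 was high for the mean log2 CPM of complex V (0.852) and for Cox6b1 (0.872). Cox6a2 was low in Ctrl replicate 2 (0.847), and the ratio of Cox6a2 to Cox6a1 was high in Ctrl replicate 3 (0.831). No cause was tested for any of them.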

How the results depend on the processing

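The 717 genes past the call rule became 1909 with no filter on low counts, 1668 with the replicate block, 0 at an adjusted p under 0.05 by edgeR (1011 at an unadjusted p under 0.05; DESeq2 836 past the call rule), and 340 to 1724 when 1 library was left out. With DESeq2 and without the library labelled Ctrl replicate 4 together, a choice made after seeing the data, 1664 passed. The replicate block leaves 1 residual degree of freedom, and deviations of like-numbered libraries correlated at -0.23 and -0.033. The deviations of the 2 LSD1skm-/- libraries are mirror images, so a Ctrl library's correlations with them differ only in sign. These values therefore cannot decide whether like-numbered libraries were paired. Other scalings and the count limit of 10 kept the count within 1.5 times. The cause was not tested, beyond the larger number of genes when the filter is dropped.

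Members past the call rule numbered 1 under every alternative except the leave-one-out fits, which gave 1 to 6; the 6, all higher, came without LSD1skm-/- replicate 1. The fit without LSD1skm-/- replicate 1 rests on a lone LSD1skm-/- library. The share of all genes past the call rule in that fit is not given here. The higher count is therefore not read as a property of the members. Members above 0 numbered 24 (without LSD1skm-/- replicate 2) to 78 when 1 library was left out. These 2 counts, and the medians of gene lists, were added to the alternatives after seeing the data.

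Leaving out 1 library gave medians of -0.046 to 0.26 for complex I, -0.0097 to 0.20 for complex II, 0.023 to 0.28 for complex III, -0.061 to 0.26 for complex IV and -0.057 to 0.24 for complex V, lowest in each case without LSD1skm-/- replicate 2 and highest without LSD1skm-/- replicate 1. A lone LSD1skm-/- library was assumed to vary like the Ctrl libraries. With the replicate block, the medians of complexes I to V were 0.050, 0.014, 0.069, -0.026 and 0.028, 58 members were above 0, and Sdhc had -0.046. Other scalings, count limits and assignments of subunits moved no median of a complex by more than the spread between Ctrl libraries.

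Over the fits that leave out 1 library, 58 of 82 members had log2 fold changes of both signs. Among those whose fold change the report gives, they were Ndufs5 (-4.45 to 0.60), Ndufs5-ps (-0.39 to 0.86), Sdhc (-0.048 to 0.13) and Uqcrb (-0.22 to 0.27), of which none had passed the call rule. The cause was not tested.

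Of the 2 LSD1skm-/- libraries, replicate 2 carries the positive sign of most members, so the number of libraries limits every comparison here. Depth limits members near the count limit, such as Cox4i2 (mean count 62.3) and Cox7c (81.7).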
